A study of Schizosaccharomyces pombe with 12 samples.

Results

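The genes described here encode proteins of the mitochondrial ribosome of fission yeast, Schizosaccharomyces pombe. They were taken by name: every gene of the gene table whose standard symbol begins with mrpl or mrps and goes on directly with a digit. The rule found 39 genes, 31 named mrpl for the large subunit and 8 named mrps for the small subunit, among 5483 annotated features, and all 39 were measured. The rule itself uses no expression value.

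The mitochondrial ribosome translates the few proteins that mitochondrial DNA encodes, which are mostly subunits of the respiratory chain and the ATP synthase. Its own proteins are nearly all encoded in the nucleus, made by cytosolic ribosomes and imported. The small subunit decodes the mRNA, and the large subunit joins the amino acids and holds the tunnel through which the new chain leaves. Fission yeast, unlike budding yeast, does not tolerate the loss of its mitochondrial DNA.

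RNA was measured on 12 Affymetrix tiling arrays, 3 biological replicates of each of 4 strains. The mutant strains were dcr1Δ (SPB81), which lacks the gene of Dicer, dcr1ΔC33 (SPB287) and dcr1-SHSS (SPB776), and the reference strain was wild-type (SPB80). Dicer is the ribonuclease of RNA interference that cleaves double-stranded RNA, and the study's title concerns its double-stranded RNA-binding domain and its retention in the nucleus. The labels give only the allele names. From general knowledge, dcr1ΔC33 is read as a Dicer shortened at its C-terminus and dcr1-SHSS as one changed in a zinc-binding motif. Each genotype stands on 1 strain in the labels, and all were grown and harvested under the same protocol.

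The deposited table gives 1 log2 level per feature and array, and a difference of these levels is called a log2 change. A gene is said to have risen or fallen where the adjusted p of limma, a linear model over all 12 arrays with Benjamini-Hochberg adjustment over all 5483 features, was under 0.05. The dcr1 feature checked the labels: its log2 level was 5.52, 5.80 and 5.37 in dcr1Δ, 10.86, 10.89 and 10.85 in dcr1ΔC33, 10.67, 10.70 and 10.64 in dcr1-SHSS, and 10.49, 10.57 and 10.60 in wild-type. It was lost in the deletion strain, at least 31.8-fold lower than in wild-type since its feature can hold only background there (limma adjusted p 1.15e-10), and was present in both other mutants. In dcr1ΔC33 it rose slightly (log2 change 0.31, adjusted p 0.02), and in dcr1-SHSS its change of 0.12 had an adjusted p of 0.304. Array medians lay between 11.37 and 11.42, and precision is limited by having 3 arrays a strain. Because the target was made double-stranded, RNA from the opposite strand of a gene cannot be told apart from its own. Of the 39 genes 26 overlap another measured gene in the gene table, and only 4 overlap no gene there, measured or not. Levels of different genes are not compared, since each has its own probes.

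In dcr1Δ no mitochondrial ribosomal protein gene rose or fell against wild-type. limma called 0 of the 39, against 3.14% of all features (2.81% higher and 0.328% lower), and the mutant differed little from wild-type over the whole table too. At an unadjusted p under 0.05 there were 4 genes, all lower in dcr1Δ: mrps28, mrpl8, mrps26 and mrpl3. They make up 10.3% of the 39, against 18.1% of all features at that level. The median log2 change was -0.023 over the 39 genes and 0.0 over all features, and 23 of the 39 (59.0%) lay below 0, against 50.0% of all features. The 95% confidence intervals of single genes ran at the widest down to -0.48 for mrpl16 and up to 0.45 for mrpl27. A change of up to these bounds in these genes is within the error of 3 arrays per strain. The replicate numbers of dcr1Δ and wild-type were treated as pairing the arrays, from weak correlations between same-numbered arrays and not from the labels. With the replicate block 3 genes fell, mrps26 (adjusted p 0.0238), mrpl16 (0.0317) and mrpl8 (0.0452), and none rose. That is 7.69% of the 39 lower, against 0.821% of all features lower and 4.56% higher under the same block.

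In dcr1ΔC33 8 of the 39 genes fell and 1 rose. The genes that fell were mrpl3, mrpl8, mrpl19, mrpl22 and mrpl40 of the large subunit and mrps18, mrps26 and mrps28 of the small subunit, and mrpl27 rose. None changed by 1.5-fold or more, and 4.29% of all features did (235), a share too small to set the 39 genes apart. The share that fell, 20.5%, stood beside 17.6% of all features, and the share that rose, 2.56%, beside 14.7% (32.3% in either direction). The share lower is thus close to the background, and the share higher is below it. Among the 4821 features whose mean level lies within the range of these genes, 19.3% fell and 14.2% rose. The median log2 change was -0.066 over the 39 genes and -0.027 over all features, and 71.8% of the genes lay below 0, against 56.3% of all features. With the replicate block, which treats same-numbered dcr1ΔC33 and wild-type arrays as paired, the count was 11 lower and 3 higher. That is 28.2% and 7.69% of the 39, against 22.9% of all features lower and 18.4% higher under the same block. It held all 9 genes above and added mrpl7, mrpl16 and mrpl51 as lower and mrpl38 and mrps16 as higher.

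In dcr1-SHSS 9 of the 39 genes fell and 1 rose. Those that fell were mrpl3, mrpl7, mrpl8, mrpl22, mrpl24 and mrpl51 of the large subunit and mrps17, mrps26 and mrps28 of the small subunit, and mrps16 rose. None changed by 1.5-fold or more, and 4.91% of all features did (269). The share that fell, 23.1%, stood beside 25.8% of all features, and the share that rose, 2.56%, beside 15.0% (40.7% in either direction). The median log2 change was -0.087 over the 39 genes and -0.057 over all features, and 79.5% of the genes lay below 0, against 62.6% of all features. The lower share in this strain is therefore no larger than the background, and all 3 comparisons share the same wild-type arrays.

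**Figure D1:**
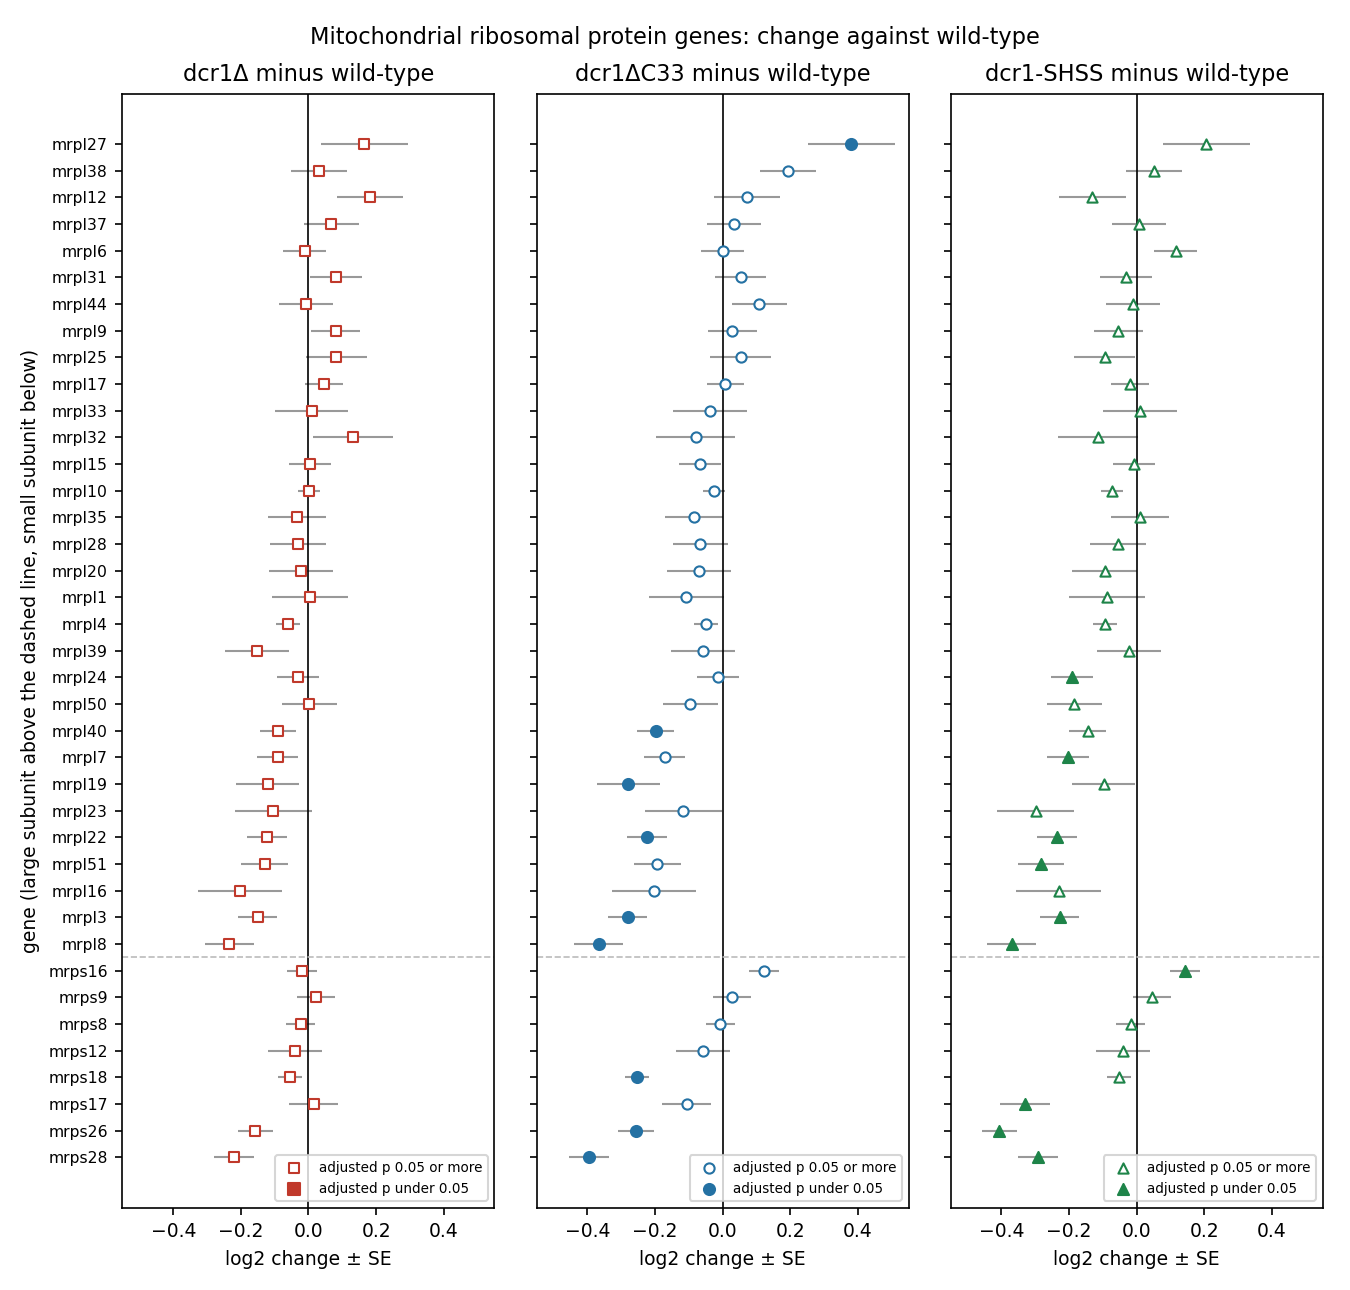
Log2 change of each of the 39 genes in dcr1Δ, dcr1ΔC33 and dcr1-SHSS minus wild-type (x axis, points with the standard error), large subunit above the dashed line and small subunit below it. Filled points have an adjusted p under 0.05: none for dcr1Δ, 9 for dcr1ΔC33 and 10 for dcr1-SHSS. All changes lie between -0.41 and 0.38.

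The 5 genes that fell in both dcr1ΔC33 and dcr1-SHSS are described first. The share of all features that fell in both was not counted, and both comparisons use the same wild-type arrays. These 5 are therefore not set apart from other features. The large-subunit gene mrpl8, whose bacterial counterpart lies near the mouth of the exit tunnel, had log2 levels of 12.11, 12.01 and 11.86 in dcr1Δ, 11.85, 11.93 and 11.79 in dcr1ΔC33, 11.80, 11.94 and 11.82 in dcr1-SHSS, and 12.30, 12.25 and 12.13 in wild-type. Every mutant array was below every wild-type array, and the third dcr1Δ array lay among those of the other mutants. Its log2 change was -0.37 ± 0.07 (SE) in dcr1ΔC33 (adjusted p 0.00411) and -0.37 ± 0.07 in dcr1-SHSS (adjusted p 0.00299), 1.29-fold lower in each. In dcr1Δ it was -0.23 ± 0.07, with an adjusted p of 0.127 (0.0452 with the replicate block).

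The large-subunit gene mrpl3 encodes a protein that in budding yeast has the fold of ribonuclease III, the family to which the catalytic domains of Dicer belong. Its log2 levels were 13.38, 13.20 and 13.27 in dcr1Δ, 13.22, 13.12 and 13.11 in dcr1ΔC33, 13.24, 13.19 and 13.19 in dcr1-SHSS, and 13.49, 13.34 and 13.47 in wild-type. The dcr1ΔC33 and dcr1-SHSS arrays were all below the wild-type arrays, while the first dcr1Δ array overlapped them. The log2 change was -0.28 ± 0.06 in dcr1ΔC33 (adjusted p 0.0047) and -0.23 ± 0.06 in dcr1-SHSS (adjusted p 0.0102), and -0.15 ± 0.06 in dcr1Δ (adjusted p 0.199). The other gene of this fold in budding yeast, mrpl15, had log2 changes of 0.01, -0.07 and -0.01 in dcr1Δ, dcr1ΔC33 and dcr1-SHSS minus wild-type, none past the threshold.

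The large-subunit gene mrpl22, whose bacterial counterpart lines the exit tunnel, had log2 levels of 12.97, 13.00 and 12.87 in dcr1Δ, 12.91, 12.80 and 12.82 in dcr1ΔC33, 12.95, 12.81 and 12.73 in dcr1-SHSS, and 13.11, 13.06 and 13.03 in wild-type. All 9 mutant arrays were below the 3 wild-type arrays. The gene fell by 0.22 on the log2 scale in dcr1ΔC33 (adjusted p 0.0156) and by 0.24 in dcr1-SHSS (adjusted p 0.01). The call in dcr1ΔC33 was lost without the second or the third dcr1ΔC33 array (adjusted p up to 0.0551), and had an adjusted p of 0.00401 with the replicate block.

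In the small subunit, mrps28, counterpart of a bacterial protein that binds ribosomal RNA early in assembly, had log2 levels of 11.67, 11.66 and 11.67 in dcr1Δ, 11.44, 11.56 and 11.48 in dcr1ΔC33, 11.62, 11.49 and 11.67 in dcr1-SHSS, and 11.77, 11.95 and 11.94 in wild-type. All mutant arrays were below the lowest wild-type array, and dcr1ΔC33 lay below dcr1Δ without overlap. The log2 change was -0.39 ± 0.06 in dcr1ΔC33 (1.31-fold lower, adjusted p 0.000983) and -0.29 ± 0.06 in dcr1-SHSS (1.23-fold lower, adjusted p 0.00364). In dcr1Δ it was -0.22 ± 0.06 with an adjusted p of 0.0802, the smallest p among the 39 genes in that strain.

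The small-subunit gene mrps26, also known as pet123 after a protein that in budding yeast is specific to the mitochondrial ribosome, showed the lowest change among the 39. Its log2 levels were 10.32, 10.40 and 10.29 in dcr1Δ, 10.26, 10.30 and 10.16 in dcr1ΔC33, 10.05, 10.15 and 10.06 in dcr1-SHSS, and 10.49, 10.56 and 10.43 in wild-type. All mutant arrays were below wild-type, and the dcr1-SHSS arrays were below all others. The log2 change was -0.16 ± 0.05 in dcr1Δ (adjusted p 0.15, and 0.0238 with the replicate block), -0.26 ± 0.05 in dcr1ΔC33 (adjusted p 0.00467) and -0.41 ± 0.05 in dcr1-SHSS (1.33-fold lower, adjusted p 0.000256).

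**Figure D2:**
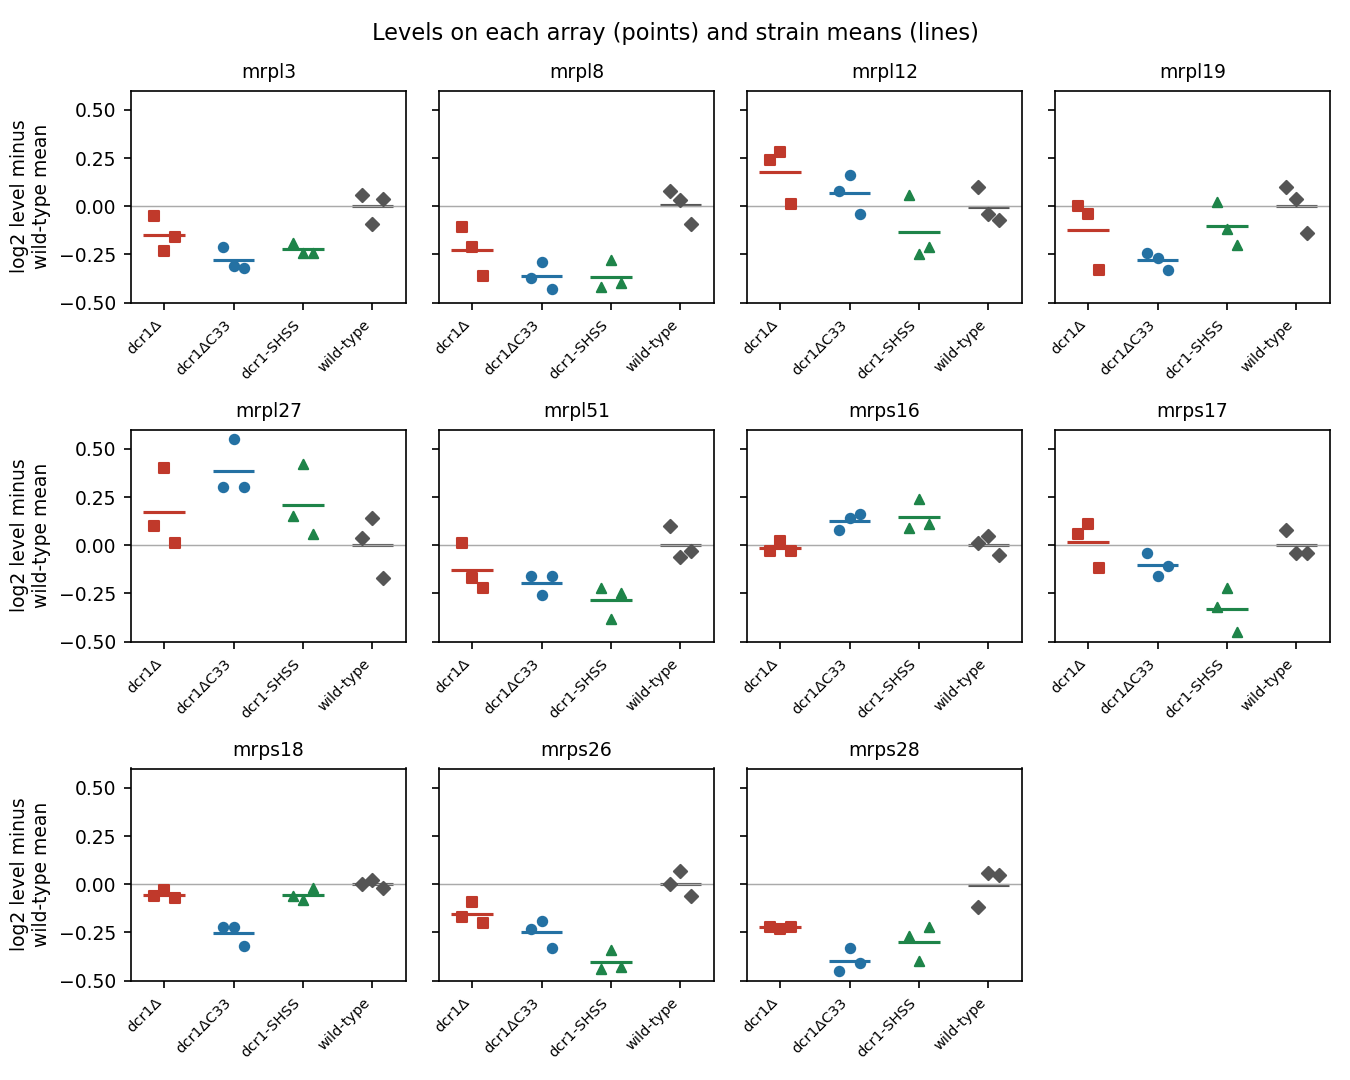
Log2 level minus the wild-type mean of that gene (y axis) on each of the 3 arrays of dcr1Δ, dcr1ΔC33, dcr1-SHSS and wild-type, for the genes with the largest changes past the threshold in each comparison and those with the smallest p in dcr1Δ. Points are arrays and lines are strain means. mrps28, mrpl8 and mrps26 lie below wild-type on all 9 mutant arrays, mrps18 is low in dcr1ΔC33 and mrps17 in dcr1-SHSS.

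Other genes fell in 1 of these strains. The small-subunit gene mrps18, whose budding yeast namesake sits on the platform of the subunit, had log2 levels of 12.32, 12.35 and 12.31 in dcr1Δ, 12.16, 12.16 and 12.06 in dcr1ΔC33, 12.32, 12.30 and 12.36 in dcr1-SHSS, and 12.38, 12.40 and 12.36 in wild-type. The dcr1ΔC33 arrays lay below all 9 others. Its log2 change was -0.25 ± 0.04 in dcr1ΔC33 (1.19-fold lower, adjusted p 0.000724), the smallest adjusted p of the 39 in that comparison, and -0.05 in dcr1Δ and in dcr1-SHSS (adjusted p 0.478 and 0.259). Its change of 0.20 ± 0.04 in dcr1-SHSS minus dcr1ΔC33 (95% confidence interval 0.12 to 0.28) had an adjusted p of 0.0872.

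The small-subunit gene mrps17, counterpart of the bacterial protein of the same number, had log2 levels of 13.17, 13.22 and 12.99 in dcr1Δ, 13.07, 12.95 and 13.00 in dcr1ΔC33, 12.79, 12.89 and 12.66 in dcr1-SHSS, and 13.19, 13.07 and 13.07 in wild-type. The dcr1-SHSS arrays were below all 9 others. The log2 change was -0.33 ± 0.07 in dcr1-SHSS (1.26-fold lower, adjusted p 0.00579), against -0.11 in dcr1ΔC33 (adjusted p 0.288) and 0.02 in dcr1Δ (adjusted p 0.935). Its change in dcr1-SHSS minus dcr1ΔC33 was -0.22 ± 0.07 (95% confidence interval -0.39 to -0.06), with an adjusted p of 0.193.

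In the large subunit, mrpl51 had log2 levels of 11.12, 10.94 and 10.89 in dcr1Δ, 10.95, 10.85 and 10.95 in dcr1ΔC33, 10.89, 10.73 and 10.86 in dcr1-SHSS, and 11.21, 11.05 and 11.08 in wild-type. The dcr1ΔC33 and dcr1-SHSS arrays were all below wild-type, and dcr1Δ overlapped it. The log2 change was -0.28 ± 0.07 in dcr1-SHSS (1.22-fold lower, adjusted p 0.0093) and -0.19 in dcr1ΔC33 (adjusted p 0.0542, or 0.0103 when blocked by replicate). The gene mrpl7 was similar in this respect, with -0.20 ± 0.06 in dcr1-SHSS (adjusted p 0.0227) and -0.17 in dcr1ΔC33 (adjusted p 0.0539, and 0.0234 with the replicate block), but its call in dcr1-SHSS was lost without the first or second wild-type array or the third dcr1-SHSS array, and in a fit of these strains alone (adjusted p up to 0.0817).

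The gene mrpl19, counterpart of the bacterial protein at the base of the ribosomal stalk, had log2 levels of 12.20, 12.16 and 11.87 in dcr1Δ, 11.96, 11.93 and 11.87 in dcr1ΔC33, 12.22, 12.08 and 12.00 in dcr1-SHSS, and 12.30, 12.24 and 12.06 in wild-type. Only the dcr1ΔC33 arrays were all below wild-type. The log2 change in dcr1ΔC33 was -0.28 ± 0.09 (adjusted p 0.0413), and the call was lost without any 1 of the 3 dcr1ΔC33 arrays or without the first or second wild-type array (adjusted p up to 0.124). The gene mrpl40 fell by 0.20 in dcr1ΔC33 (adjusted p 0.0183, and 0.00629 with the replicate block) and had -0.15 in dcr1-SHSS (adjusted p 0.0517). Its call in dcr1ΔC33 without the block was lost without the first wild-type or the third dcr1ΔC33 array (adjusted p up to 0.072). The gene mrpl24 fell by 0.19 in dcr1-SHSS (adjusted p 0.0321), lies in the lowest 20% of features by level, and lost its call without any 1 of the dcr1-SHSS arrays or without the first or second wild-type array, and under moderation with an intensity trend (adjusted p up to 0.111).

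Of the 39 genes 2 rose against wild-type without the replicate block, and either call was lost when some single arrays were left out. The large-subunit gene mrpl27 had log2 levels of 13.16, 13.46 and 13.07 in dcr1Δ, 13.36, 13.61 and 13.36 in dcr1ΔC33, 13.21, 13.48 and 13.12 in dcr1-SHSS, and 13.10, 13.20 and 12.89 in wild-type. The second array was the highest in each strain, and only dcr1ΔC33 was wholly above wild-type. Its log2 change of 0.38 ± 0.13 in dcr1ΔC33 (1.30-fold higher, adjusted p 0.0445) was no longer past the threshold without any 1 of the dcr1ΔC33 arrays or without the first or the third wild-type array (adjusted p up to 0.143). When blocked by replicate, the SE of this change was 0.05 and its adjusted p 0.000598.

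The small-subunit gene mrps16, counterpart of the bacterial protein of that number, had log2 levels of 12.91, 12.96 and 12.91 in dcr1Δ, 13.02, 13.08 and 13.10 in dcr1ΔC33, 13.03, 13.18 and 13.05 in dcr1-SHSS, and 12.95, 12.99 and 12.89 in wild-type. All arrays of dcr1ΔC33 and dcr1-SHSS were above those of dcr1Δ and wild-type. The change against wild-type was 0.14 ± 0.05 in dcr1-SHSS (1.10-fold higher, adjusted p 0.0281) and 0.12 in dcr1ΔC33 (adjusted p 0.0592, or 0.0262 when blocked by replicate). The call in dcr1-SHSS was lost without the first or the third wild-type array or the second dcr1-SHSS array, and in a fit of these strains alone (adjusted p up to 0.0954).

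The remaining 25 genes were called in no mutant against wild-type without the replicate block. Over them the log2 change ran from -0.20 (mrpl16) to 0.18 (mrpl12) in dcr1Δ, from -0.20 (mrpl16) to 0.19 (mrpl38) in dcr1ΔC33 and from -0.30 (mrpl23) to 0.11 (mrpl6) in dcr1-SHSS. The least variable was mrps8, within 0.02 of wild-type in every mutant, followed by mrpl33 and mrps9 within 0.04. The gene mrps12, whose bacterial counterpart forms part of the decoding centre, stayed within 0.06, and mrpl28, its direct neighbour in the gene table, within 0.07. The largest were mrpl23, at -0.30 ± 0.11 in dcr1-SHSS (adjusted p 0.0552), and mrpl16, at -0.20, -0.20 and -0.23 in dcr1Δ, dcr1ΔC33 and dcr1-SHSS (adjusted p 0.436, 0.234 and 0.163). In the comparisons whose array numbers were treated as pairing, the replicate block called mrpl16 lower in dcr1Δ (adjusted p 0.0317) and dcr1ΔC33 (adjusted p 0.00628). It called mrpl38 higher in dcr1ΔC33 (adjusted p 0.0304). Of all 39 genes 19 lay below wild-type in all 3 mutants and 4 above it in all 3, and none was called in both directions. That count was not made over all features, of which 50.0%, 56.3% and 62.6% lay below 0 in dcr1Δ, dcr1ΔC33 and dcr1-SHSS. The 3 comparisons also share the wild-type arrays, so their signs are not independent.

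The counts were also taken by subunit. Of the 31 large-subunit genes 5 fell and 1 rose in dcr1ΔC33 (median log2 change -0.066), and 6 fell and 0 rose in dcr1-SHSS (median -0.093). The shares that fell, 16.1% and 19.4%, are near the 17.6% and 25.8% of all features, whose medians were -0.027 and -0.057. The shares that rose, 3.23% and 0%, are below the 14.7% and 15.0% of all features. Of the 8 small-subunit genes 3 fell in dcr1ΔC33 (median -0.081), and 3 fell and 1 rose in dcr1-SHSS (median -0.047), too few genes to read a share from. In dcr1Δ the medians were -0.011 for the large and -0.032 for the small subunit. No test of the difference between the subunits was made.

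Between the mutants, dcr1ΔC33 minus dcr1Δ gave 1 gene of the 39, mrps18, which was lower in dcr1ΔC33 (log2 change -0.20, adjusted p 0.0113), against 3.28% of all features lower and 4.61% higher (7.9% in either direction). The median log2 change was -0.046, and -0.025 over all features. With the replicate block 4 genes were called: mrps18 and mrpl3 lower in dcr1ΔC33, and mrpl27 and mrps16 higher, 5.13% each way against 8.04% of all features lower and 7.4% higher. In dcr1-SHSS minus dcr1Δ 3 genes were lower, mrps17 (-0.35, adjusted p 0.00896), mrps26 (-0.25, adjusted p 0.00805) and mrpl12 (-0.31, adjusted p 0.0393), and 1 was higher, mrps16 (0.16, adjusted p 0.0264). The background was 17.7% of all features lower and 8.85% higher (26.6% in either direction), so a smaller share of these genes was called than of all features. The median was -0.067, and -0.052 over all features. With the replicate block 8 genes were called, 7 lower and 1 higher, the added ones being mrpl23, mrpl25, mrpl32 and mrpl51. That is 17.9% and 2.56% of the 39, against 23.7% of all features lower and 11.7% higher under the same block.

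The large-subunit gene mrpl12, counterpart of the bacterial stalk protein, had log2 levels of 9.51, 9.20 and 9.24 in dcr1-SHSS and 9.69, 9.73 and 9.46 in dcr1Δ. In dcr1ΔC33 they were 9.53, 9.61 and 9.41, and in wild-type 9.55, 9.41 and 9.38. The first dcr1-SHSS array overlapped dcr1Δ. The call was lost under quantile normalization, in a fit of these strains alone and without the first or second dcr1Δ or the second or the third dcr1-SHSS array (adjusted p up to 0.122). The gene mrps16 lost its call between these mutants without the first or the third dcr1Δ or the second dcr1-SHSS array, and in a fit of these strains alone (adjusted p up to 0.0802). Blocked by replicate, the adjusted p between these mutants was 0.0122 for mrpl12 and 0.0108 for mrps16.

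In dcr1-SHSS minus dcr1ΔC33 limma called 0 of the 39 genes, against 0.146% of all features (0.0547% higher and 0.0912% lower). At an unadjusted p under 0.05 there were 4, mrpl24, mrps17 and mrps26 lower in dcr1-SHSS and mrps18 higher, which is 10.3% of the 39 against 15.4% of all features. The genes called in only 1 of these alleles against wild-type therefore have no called difference between the alleles. The 95% confidence intervals of single genes reached from -0.46 (mrpl27) to 0.39 (mrpl19), so the alleles are not shown to act alike on them. The median log2 change was -0.027 over the 39 genes and -0.024 over all features.

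The array number went with the level of many of these genes. The median over the 39 genes of the log2 level minus the wild-type mean was 0.005, 0.008 and -0.11 on the dcr1Δ arrays, -0.04, -0.028 and -0.12 on the dcr1ΔC33 arrays, -0.077, -0.11 and -0.12 on the dcr1-SHSS arrays, and 0.041, 0.011 and -0.038 on the wild-type arrays. The third array was the lowest in every strain. On it 34 of the 39 genes in dcr1Δ, 32 in dcr1ΔC33, 32 in dcr1-SHSS and 27 in wild-type were below their wild-type mean. The 43 nuclear genes of the respiratory chain and the ATP synthase were lowest on the third array of every strain too, with medians of -0.15, -0.15, -0.13 and -0.18 on the third arrays of dcr1Δ, dcr1ΔC33, dcr1-SHSS and wild-type, whereas the median over all features lay between -0.06 and 0.014 on every array. The part of this array effect in the changes of single genes was not tested beyond the replicate block and the arrays left out. Within a strain the median SD over the 39 genes was 0.11 in dcr1Δ, 0.065 in dcr1ΔC33, 0.087 in dcr1-SHSS and 0.083 in wild-type, against 0.07, 0.054, 0.065 and 0.071 over all features.

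**Figure D3:**
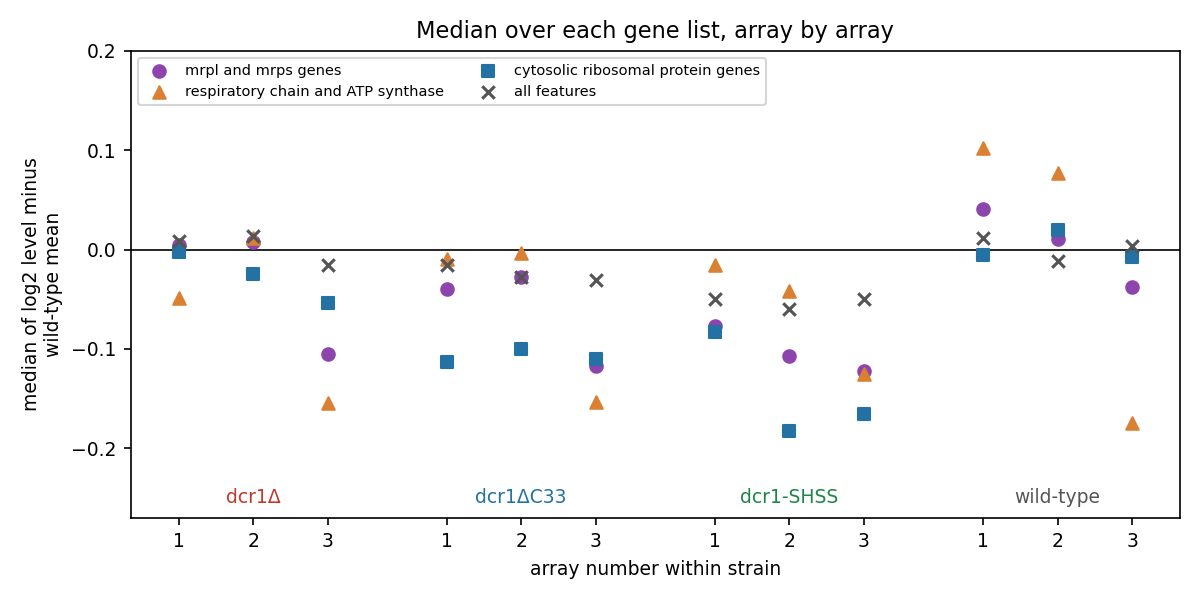
Median over each gene list of the log2 level minus the wild-type mean (y axis) on arrays 1 to 3 of dcr1Δ, dcr1ΔC33, dcr1-SHSS and wild-type (x axis). The mitochondrial ribosomal protein genes and the respiratory chain genes are lowest on the third array of every strain, while the median of all features stays between -0.06 and 0.014.

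Other genes of mitochondrial translation were read from the same fit. The 25 further mitoribosome genes, with names such as rsm and mrp, had 0 called by limma in dcr1Δ (2 at an unadjusted p under 0.05), 8 lower and 0 higher in dcr1ΔC33, and 8 lower and 0 higher in dcr1-SHSS. Their median log2 changes were -0.036, -0.09 and -0.088, against 0.0, -0.027 and -0.057 over all features. The 8 that fell make up 32% of this list in either strain. Over all features 17.6% fell and 14.7% rose in dcr1ΔC33, and 25.8% fell and 15.0% rose in dcr1-SHSS. The 2 genes in dcr1Δ are 8% of the list, against 18.1% of all features at that level. The small-subunit genes rsm23, nam9 and rsm25 had the largest changes: rsm23 gave -0.32 ± 0.04 in dcr1ΔC33 (adjusted p 0.000403) and -0.22 in dcr1-SHSS (adjusted p 0.00293). The gene nam9 gave -0.32 ± 0.07 in dcr1ΔC33 (adjusted p 0.00933) and -0.28 in dcr1-SHSS (adjusted p 0.0134), and rsm25 -0.28 (adjusted p 0.0175) and -0.23 (adjusted p 0.0303). Their names come from budding yeast, and bot1, a further mitoribosome gene, fell by 0.22 in dcr1ΔC33 (adjusted p 0.033) and by 0.26 in dcr1-SHSS (adjusted p 0.0131).

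The 22 translation factors and mRNA-specific regulators held the largest changes among the genes of mitochondrial translation. In dcr1Δ 1 of them fell, tuf1, the elongation factor that brings tRNA to the ribosome (log2 change -0.20, adjusted p 0.0493). In dcr1ΔC33 7 fell and 0 rose, and in dcr1-SHSS 7 fell and 1 rose, with medians of -0.14 and -0.12. The 7 that fell make up 31.8% of the list in either strain, against 17.6% and 25.8% of all features. The share that rose was 0% and 4.55%, against 14.7% and 15.0% of all features. The gene cbp7, whose product acts on the mitochondrial mRNA of cytochrome b, gave -0.25 ± 0.07 in dcr1Δ (adjusted p 0.106), -0.62 ± 0.07 in dcr1ΔC33 (1.54-fold lower, adjusted p 0.000201) and -0.67 ± 0.07 in dcr1-SHSS (1.59-fold lower, adjusted p 9.68e-05). The gene sls1, whose product acts with those of mrh5 and mtf2 in the translation of the cox1 mRNA, gave -0.41 ± 0.08 in dcr1ΔC33 (adjusted p 0.00337) and -0.16 in dcr1-SHSS (adjusted p 0.124). The gene mrh5 fell by 0.21 in dcr1ΔC33 (adjusted p 0.0193) and by 0.31 in dcr1-SHSS (adjusted p 0.00223). The gene mpa1, whose product partners the RNA-binding protein of ppr10, gave -0.37 ± 0.06 in dcr1ΔC33 (adjusted p 0.0017) and -0.15 in dcr1-SHSS (adjusted p 0.0818), while ppr10 fell in both, by 0.20 (adjusted p 0.00864) and by 0.22 (adjusted p 0.00501). The gene that rose in dcr1-SHSS was mrf1 (0.25, adjusted p 0.0225), named for the release factor of budding yeast.

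Of the 8 genes for mitoribosome assembly, rRNA modification and membrane insertion, 6 fell and 1 rose in dcr1ΔC33, and 4 fell in dcr1-SHSS (mtg2, mrm1, oxa101 and oxa102). limma called 0 in dcr1Δ (1 at an unadjusted p under 0.05). The medians were -0.043 for dcr1Δ, -0.21 for dcr1ΔC33 and -0.20 for dcr1-SHSS. Over all features 17.6% fell in dcr1ΔC33 and 25.8% in dcr1-SHSS, and 8 genes are too few to read a share from. The gene mtg2, for a GTPase of large-subunit assembly, gave -0.25 in dcr1ΔC33 (adjusted p 0.0156) and -0.55 ± 0.07 in dcr1-SHSS (1.47-fold lower, adjusted p 0.000192). The rRNA methyltransferase gene mrm1 gave -0.24 (adjusted p 0.0212) and -0.38 (adjusted p 0.00205), and mrm2 -0.37 (adjusted p 0.0472) and -0.34 (adjusted p 0.0545), in dcr1ΔC33 and dcr1-SHSS. The gene that rose in dcr1ΔC33 was mba1 (0.10, adjusted p 0.0395), which in budding yeast holds the ribosome at the inner membrane.

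Of 8 mitochondrial aminoacyl-tRNA synthetase genes limma called 0 in dcr1Δ, also 0 at an unadjusted p under 0.05. In dcr1ΔC33 slm5, for asparaginyl-tRNA (-0.36, adjusted p 0.0244), and dia4, for seryl-tRNA (-0.24, adjusted p 0.0443), fell. In dcr1-SHSS 4 fell, led by mse1, for glutamyl-tRNA (-0.37, adjusted p 0.0202), the others being dia4, msk1 and msm1. The 3 genes for mitochondrial transcription, rpo41, mtf1 and pet127, gave 0 calls in limma in each mutant and 0 at an unadjusted p under 0.05. The smallest p among them was that of mtf1 in dcr1ΔC33 (-0.08, adjusted p 0.123). Both lists are too short to set a share beside the 17.6% and 25.8% of all features that fell in dcr1ΔC33 and dcr1-SHSS.

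Among nuclear genes named for the respiratory chain and the ATP synthase, which include assembly genes such as atp11 and sdh7, few were called. Of these 43 genes limma called 0 in dcr1Δ (3 at an unadjusted p under 0.05). In dcr1ΔC33 2 fell (atp25 and sdh1) and 2 rose (atp11 and atp15), and in dcr1-SHSS 3 fell (sdh7, atp23 and atp12) and 1 rose (atp11). The shares lower were 4.65% and 6.98%, against 17.6% and 25.8% of all features. The shares higher were 4.65% and 2.33%, against 14.7% and 15.0%. Precision was lower here, with a median SE of 0.095 against 0.059 over all features. The ATP synthase assembly gene atp11 rose in both, by 0.37 ± 0.09 in dcr1ΔC33 (adjusted p 0.00982) and 0.24 in dcr1-SHSS (adjusted p 0.0452), and sdh7, for assembly of succinate dehydrogenase, fell by 0.38 in dcr1-SHSS (adjusted p 0.0431). The cytosolic ribosomal protein genes differed from the mitochondrial ones in their counts. Of 136 such genes, 1 fell in dcr1Δ (rpl1602, -0.32, adjusted p 0.0418), 51 fell and 1 rose (rps27) in dcr1ΔC33, and 77 fell and 0 rose in dcr1-SHSS. That is 37.5% lower in dcr1ΔC33 and 56.6% in dcr1-SHSS, against 20.5% and 23.1% of the mitochondrial genes and 17.6% and 25.8% of all features. The cytosolic medians were -0.028, -0.10 and -0.14 in dcr1Δ, dcr1ΔC33 and dcr1-SHSS. The largest changes were those of rps2202, with -0.62 in dcr1ΔC33 (adjusted p 0.00332) and -0.60 in dcr1-SHSS (adjusted p 0.0031), and rpl1603, with -0.51 (adjusted p 0.00631) and -0.64 (adjusted p 0.00153). The difference between the lists was not tested, and precision differed, with a median SE of 0.073 for the mitochondrial genes and 0.047 for the cytosolic ones.

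**Figure D4:**
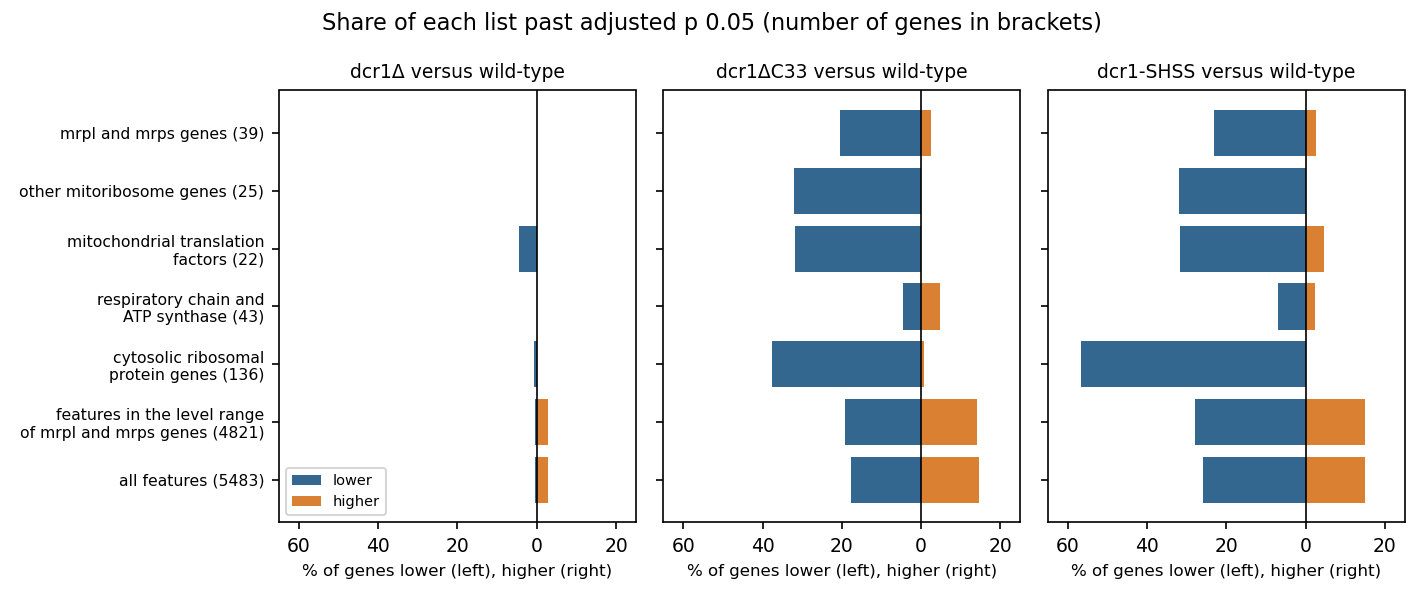
Share of each gene list that was lower (bars to the left) or higher (bars to the right) at an adjusted p under 0.05 (x axis, percent of genes) in dcr1Δ, dcr1ΔC33 and dcr1-SHSS against wild-type, with the number of genes in brackets. The mitochondrial ribosomal protein genes reach 20.5% lower in dcr1ΔC33 and 23.1% in dcr1-SHSS, near the 17.6% and 25.8% of all features, while cytosolic ribosomal protein genes reach 37.5% and 56.6%.

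The genes beside the named members on the chromosome were read for what they share with them, since the array target does not keep strands apart. The neighbours of mrpl22 are not described, although the measured SPCC1739.01 overlaps 893 of the 961 bases of mrpl22 in the gene table. The feature that overlaps mrpl8 in the gene table is sme2, the non-coding meiRNA of meiosis, with log2 changes of 0.14, 0.01 and -0.06 in dcr1Δ, dcr1ΔC33 and dcr1-SHSS minus wild-type, none past the threshold. The gene before mrpl8, aga1, fell in dcr1ΔC33 (-0.20, adjusted p 0.0207) and dcr1-SHSS (-0.36, adjusted p 0.000744), and the gene after it, osh41, was not called. The gene rib4, of riboflavin synthesis, overlaps mrps17 and gave log2 changes of 0.29 in dcr1Δ (adjusted p 0.0802), 0.53 in dcr1ΔC33 (adjusted p 0.000941) and 0.47 in dcr1-SHSS (adjusted p 0.00132), while tsr2 on the other side was not called. The gene meu22, which overlaps 2791 of the 3670 bases of mrps26, rose in dcr1ΔC33 (0.43, adjusted p 0.0418) and gave 0.28 in dcr1-SHSS (adjusted p 0.134). The overlapping SPNCRNA.417 was similar (0.31, adjusted p 0.038, and 0.26, adjusted p 0.0607), and lcl3 was not called.

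The Golgi complex gene cog8, which overlaps 1119 of the 1347 bases of mrps28, was not called. On the other side of mrps28, rsp1 fell in dcr1ΔC33 (-0.29, adjusted p 0.0162) and dcr1-SHSS (-0.25, adjusted p 0.026). Beside mrpl3, scp1 was not called and rpp102, a cytosolic ribosomal protein gene, fell in dcr1-SHSS (-0.28, adjusted p 0.02). Beside mrps18, the heterochromatin factor gene clr2 fell in dcr1-SHSS (-0.13, adjusted p 0.0482), where mrps18 itself was not called, and gab1 did too (-0.31, adjusted p 0.0226). Beside mrpl19, npt1 fell in dcr1ΔC33 (-0.18, adjusted p 0.0154) and dcr1-SHSS (-0.18, adjusted p 0.0123), and cox16 was not called. The overlapping SPAC3A12.06c rose beside mrpl27 in dcr1-SHSS (0.24, adjusted p 0.0264), and rpb11 was not called. Around mrpl51 mdm34 rose in dcr1-SHSS (0.15, adjusted p 0.007), whereas the overlapping ctu2 was not called, and around mrps16 neither sre2 nor osh42 was called. Beside mrpl12, ipk1 rose in dcr1ΔC33 (0.23, adjusted p 0.00684) and dcr1-SHSS (0.22, adjusted p 0.00673), and the overlapping lsg1 was not called.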

How the data were processed

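Total RNA of growing cells, extracted with hot phenol, was labelled as double-stranded target and hybridised to tiling arrays, per the labels' protocols. Replicates are biological per the series' design text. The authors deposited log2 levels, 1 per feature and array, made with R 2.10.0 and affy per the submitters' processing notes; the sources used here do not state background correction, normalization, probe summary or genome build. Array background can make changes of dim genes look smaller.

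All 39 members were found by locus tag in the gene table (assembly ASM294v3), as were 5337 of 5483 features, with 20 more by synonym. The table served for names and neighbours only. limma 3.58.1 (R 4.3.3) fitted the levels as given with 4 groups over 12 arrays (prior degrees of freedom 2.44, residual 8). Its p-values were 2-sided and adjusted over all features. The fit was tested on simulated data with independent noise and no array effect, so that test does not cover the array effect described above. The closest arrays differed by a median of 0.057 (absolute, log2), and all 12 counted as replicates.

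Members and lists were chosen with earlier results of these data known. Given in full were up to 5 members each way per mutant against wild-type and up to 3 between mutants; in dcr1Δ, where none passed, the 2 of smallest p. From other lists, up to 3 with the largest change were to be named. mrpl22, bot1 and further genes of the lists such as mrh5, ppr10, tuf1, mrf1, mba1 and rpl1602 were named after their values were seen. That choice did not go by size: the translation factor list also held ppr3, with -0.34 in dcr1ΔC33 and -0.30 in dcr1-SHSS. Left out of the lists were rsm1, mrp1, mst1, msy1 and msd1, which in fission yeast name other functions or a non-coding RNA. The gene table holds no products, so this rested on general knowledge.

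Deviations of same-numbered arrays from their strain means correlated by over 0.1 in all 3 pairs of 4 comparisons, whose array numbers were treated as pairing: dcr1Δ with wild-type (0.151, 0.354, 0.252), dcr1ΔC33 with wild-type (0.178, 0.388, 0.223), dcr1ΔC33 with dcr1Δ (0.184, 0.3, 0.131) and dcr1-SHSS with dcr1Δ (0.178, 0.437, 0.266). The first pair fell short for dcr1-SHSS with wild-type (0.0931) and with dcr1ΔC33 (0.0206). Alternatives were the replicate block, leaving out 1 array at a time, the compared strains alone, quantile normalization, median centring, no features of the lowest 20%, and an intensity trend with robust moderation.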

Additional observations from a re-analysis of the deposited data

How the results depend on the processing

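Of 72 alternatives to the 6 counts of called genes, 61 stayed within 1.5 times. These include counts of 0 that stayed 0: every alternative for dcr1-SHSS against dcr1ΔC33 and most for dcr1Δ against wild-type. No median moved by more than the SD between replicate arrays in any of its 72. That SD is large beside the medians: dcr1Δ arrays had 0.005, 0.008 and -0.105, beside a median change of -0.023. The replicate block, the intensity trend and the compared strains alone leave each log2 change as it was, so no median could move there. With the replicate block the counts were 3 for dcr1Δ, 14 for dcr1ΔC33 and 15 for dcr1-SHSS against wild-type. Between mutants they were 4 in dcr1ΔC33 and 8 in dcr1-SHSS against dcr1Δ, and 0 in dcr1-SHSS against dcr1ΔC33. Array numbers were not treated as pairing dcr1-SHSS with wild-type or with dcr1ΔC33, since 1 correlation of each fell below 0.1. Against wild-type that correlation was 0.0931, close to the cut. The block there called 38.5% of the 39 genes in dcr1-SHSS, beside 48.4% of all features. It held all 10 genes called without it and added mrpl16, mrpl23, mrpl40 and mrpl50 as lower and mrpl27 as higher. Quantile normalization gave 2 in dcr1ΔC33 against dcr1Δ, and the compared strains alone gave 2 in dcr1-SHSS against dcr1Δ. Leaving out 1 array gave 0 to 1 in dcr1Δ (1 without the first wild-type array), 5 to 9 in dcr1ΔC33 (5 without the third dcr1ΔC33 array) and 7 to 10 in dcr1-SHSS against wild-type. It gave 1 to 2 in dcr1ΔC33 against dcr1Δ (2 without the third dcr1Δ array) and 2 to 6 in dcr1-SHSS against dcr1Δ (6 without the third dcr1Δ array, 2 without the first dcr1Δ or the second dcr1-SHSS array). The cause was not tested. Of 24 called changes of single genes, 15 were kept under every alternative that tested them, 9 were lost under at least 1, all 9 when an array was left out, and 0 reversed. The log2 changes of single genes had a median SE of 0.07, so small changes can be missed with 3 arrays per strain.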

Other observations

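The measured genes mrp11, img2 and mrp5 carry an mrpl or mrps name only as a synonym in the gene table. The small-subunit gene mrp5 fell in dcr1ΔC33 (log2 change -0.20, adjusted p 0.0398) and gave -0.12 in dcr1-SHSS (adjusted p 0.147). Neither mrp11 nor img2 was called against wild-type.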
